A study of Mus musculus with 4 samples.

Results

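The genes described are 10 genes of the smooth muscle contractile apparatus, Acta2, Myh11, Tagln, Cnn1, Myl9, Lmod1, Acta1, Actg2, Des and Tpm2. They were taken by symbol from the gene table of the count matrices, and all 10 were among the 20672 genes analysed. Single cells of mouse kidney were profiled with 10x Chromium 3′ v2 chemistry in 4 libraries, 1 per group. The transplant library came from C57BL/6N kidneys that were dissected at E12.5 and then kept for 12 days as grafts in the epididymal fat of a host. The other libraries were kidneys in situ at E15.5 (ICR), E17.5 (C57BL/6) and P0 (ICR). The label of the transplant gives the host strain as C57BL/6N, while the design of the series gives NOD immunodeficient hosts, and which holds was not settled here. All 4 libraries are labelled wild type, yet the P0 library held 8181 UMIs (unique molecules) of tdTomato and the other 3 held 0. Whether animals were pooled for a library is not given in the sources used here. With 1 library per group there is no measure of variation between animals, no test was made, and the differences below are between these libraries. P0 and E15.5 share a strain, but strain and stage cannot be told apart where P0 is set against E17.5. Strain, age and transplantation cannot be told apart where the transplant is set against P0. The transplant and E17.5 have close strains but differ in both age and site of growth.

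Smooth muscle contracts when myosin, switched on through its regulatory light chain, pulls on actin filaments that are anchored at dense bodies and at the membrane. In the kidney this machinery is known from the arterioles, from pericytes and mesangial cells, and from the muscle coat of the pelvis and ureter, and renin-producing cells share a lineage with arteriolar muscle. Among the members, Acta2, Actg2 and Acta1 encode the vascular, visceral and skeletal muscle actins. Myh11 encodes smooth muscle myosin heavy chain and Myl9 the regulatory light chain. Tagln (transgelin), Cnn1 (calponin), Lmod1 (leiomodin, which nucleates actin filaments) and Tpm2 (tropomyosin) act on the thin filament, and Des encodes the muscle intermediate filament desmin. Many of these genes are textbook targets of serum response factor (SRF), which binds the CArG box, a run of A and T between CC and GG.

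On GRCm38, the build of the counts, the protein-coding members span these positions of the GENCODE annotation. The actins were Acta2 (minus strand) at chr19:34241090-34255590, Actg2 (minus strand) at chr6:83512905-83536265 and Acta1 (minus strand) at chr8:123891769-123894751. The myosin genes were Myh11 (minus strand) at chr16:14194535-14291372 and Myl9 (plus strand) at chr2:156775420-156781658. The genes of the thin filament were Tagln (minus strand) at chr9:45929619-45936058, Cnn1 (plus strand) at chr9:22099216-22109630, Lmod1 (plus strand) at chr1:135324807-135368065 and Tpm2 (minus strand) at chr4:43514711-43523765. The intermediate filament gene was Des (plus strand) at chr1:75360329-75368579. The end of Tagln overlaps an exon of Pcsk7 on the opposite strand, and the actins are near-identical in sequence. How the counting treated strand and reads shared between near-identical genes is not given in the sources used here, so the split of reads among the actins, and between Tagln and Pcsk7, is uncertain.

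The promoters of 7 members were found in the RefSeq table for GRCm38.p6, which gives 250 bases before to 50 after each start; Myh11, Tagln and Actg2 were not matched. A CArG box (CC, 6 bases of A or T, GG, a pattern that reads the same way on both strands) was found in 2 of these 7, against 535 of 32851 promoters (1.63%). A match is a description of the letters and not evidence of binding. Those 2 windows are shown because SRF is the best known regulator of these genes, with the CArG box in capitals. The Myl9 window begins its box 161 bases upstream of the start, and the Acta1 box 73 bases upstream.
Myl9, plus strand, chr2:156775283-156775332: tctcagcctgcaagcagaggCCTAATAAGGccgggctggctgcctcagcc
Acta1, minus strand, chr8:123894819-123894868: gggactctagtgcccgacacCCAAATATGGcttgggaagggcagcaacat

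The libraries held 7670 (transplant), 4158 (E15.5), 5551 (E17.5) and 10810 (P0) barcodes, and the cells used numbered 6268 in the transplant, 3463 at E15.5, 4396 at E17.5 and 7568 in the P0 library. Their median UMIs were 6149.5 in the transplant, 22592 at E15.5, 7201.5 at E17.5 and 9862 in the P0 library. Pairs of libraries shared between 27 and 108 barcodes, at most 1.41% of the smaller library. Clusters were built without the 10 members and named from marker genes, so each class is "like" its name, and the short names smooth muscle, renin-high, pericyte and mesangial, stroma, early nephron and nephron progenitor are used below in that sense. Mural cells were divided by thresholds set after the data had been seen: renin-high cells had Ren1 at 200 or more per 10000 UMIs, and among the others smooth muscle cells had 12 or more per 10000 of 11 smooth muscle markers. These classes are therefore ranges of a score and not separate types. Within 25% of the smooth muscle threshold lay 37 of 560 mural cells in the transplant, 3 of 39 at E15.5, 9 of 125 at E17.5 and 15 of 327 at P0. The median cell of the smooth muscle class had 33.7 per 10000 of these markers in the transplant, 24.2 at E15.5, 20.5 at E17.5 and 24.8 in the P0 library, and the median cell of the pericyte and mesangial class between 1.36 (E17.5) and 2.56 (transplant). Median Ren1 in the smooth muscle class lay between 2.09 per 10000 in the transplant and 18.9 at P0, and in renin-high cells between 270 at E15.5 and 681 in the transplant. Adipocyte markers summed to 2.15 CPM or less in the smooth muscle class of every library, while mesothelial markers reached 199.7 CPM in the transplant stroma; the part of host cells in the transplant was not tested.

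A level is the sum of a gene's UMIs in all cells that a library has of a class, taken as a share of all UMIs of those cells and scaled to CPM, and intervals in parentheses are exact 95% limits of counting error. A member counts as higher or lower at 2-fold or more between 2 sums, among genes with at least 20 UMIs over both. Levels are not compared between genes.

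Most UMIs of several contractile genes lay outside the smooth muscle class. The stroma held 38.9% of all Acta2 UMIs in the transplant, 55.1% at E15.5, 58.1% at E17.5 and 50.6% in the P0 library. The smooth muscle class held between 5.81% (E17.5) and 14% (transplant). Of Myh11, smooth muscle held 48.3% in the transplant, 9.39% at E15.5, 8.13% at E17.5 and 36.1% in the P0 library. Actg2, the visceral actin, had much of its UMIs in a small group of Tbx18 and Myocd cells described below, 48.3% in the transplant, 74.8% at E15.5, 73.3% at E17.5 and 27.3% in the P0 library. Des lay in pericytes, stroma and nephron progenitors. Pericytes held 65.2% of its UMIs in the transplant, 5.24% at E15.5, 18.1% at E17.5 and 35.9% in the P0 library. Stroma held 12.1% of them in the transplant, 38.5% at E15.5, 26.6% at E17.5 and 18.4% in the P0 library, and progenitors 48.2% at E15.5, 39.4% at E17.5 and 23.1% in the P0 library. The early nephron held 39.2% of the Lmod1 UMIs at P0, and smooth muscle 4.90%.

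**Figure D1:**
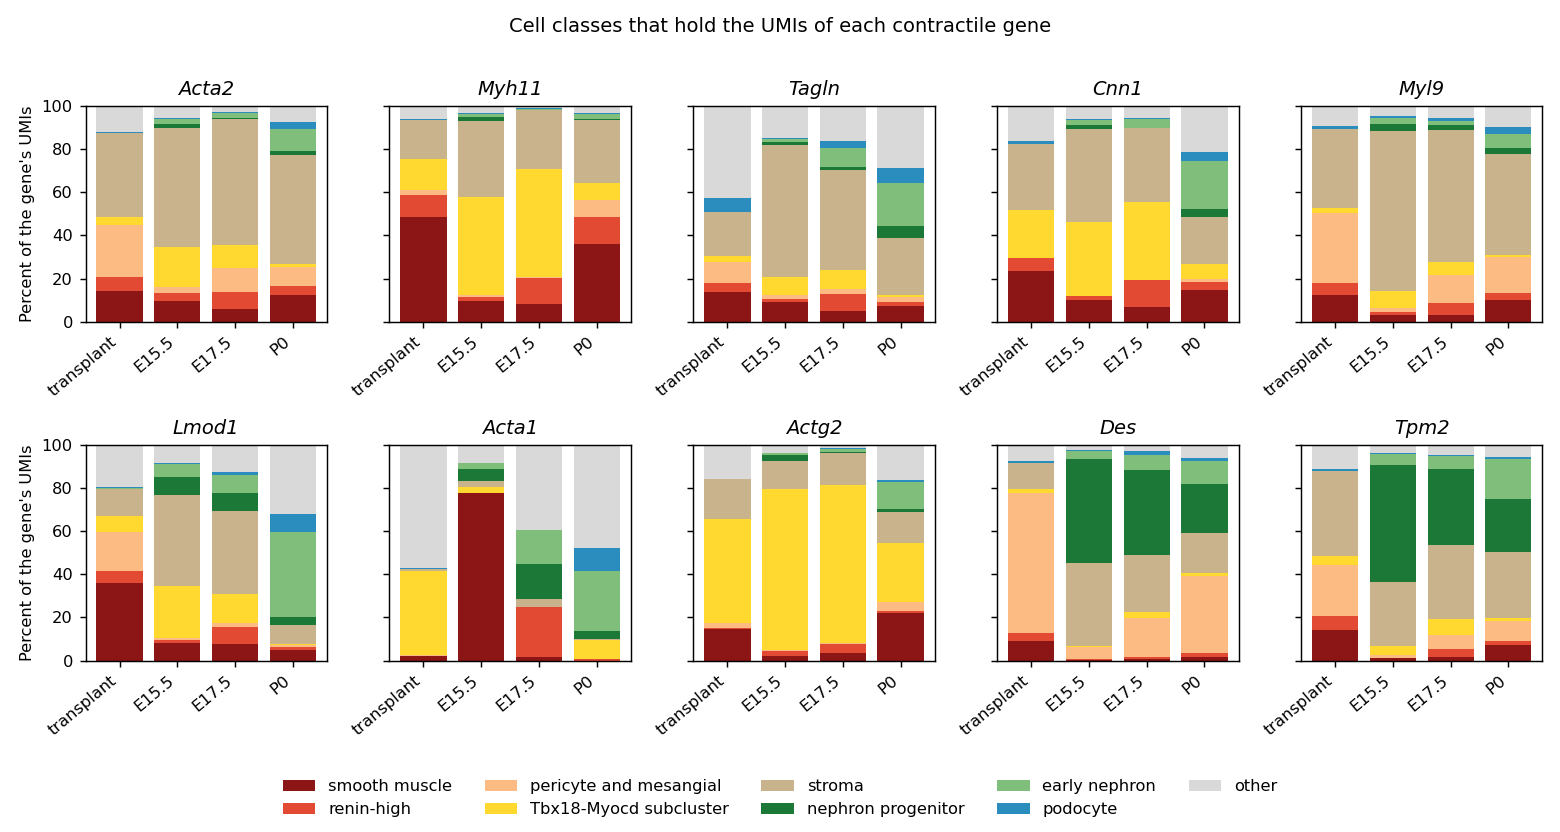
Share of each gene's UMIs (percent, vertical axis) held by each cell class (colours) in the 4 libraries (horizontal axis), 1 panel per gene. The Actg2 bars are led by the Tbx18 and Myocd cells at E15.5 and E17.5, and the Tpm2 and Des bars by nephron progenitors at E15.5.

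In the smooth muscle class, 8 of the 10 contractile genes lay within 2-fold between P0 and E15.5. The class held 93 transplant cells, 10 E15.5 cells, 14 E17.5 cells and 37 P0 cells. Acta2 was at 8280.0 CPM in the transplant, 7398 CPM at E15.5, 6570.1 CPM at E17.5 and 9391 CPM at P0. Myl9 was at 5251 CPM in the transplant, 2724 CPM at E15.5, 2093 CPM at E17.5 and 3544 CPM at P0. Tagln was at 4072 CPM in the transplant, 4236 CPM at E15.5, 2064 CPM at E17.5 and 3594 CPM at P0. All 3 genes were lowest at E17.5. For myosin heavy chain, Myh11 at P0 over E15.5 was 1.40-fold (1.03 to 1.92), with 936 CPM in the transplant, 424 CPM at E15.5, 479.7 CPM at E17.5 and 593 CPM at P0. Cnn1 was at 288 CPM in the transplant, 411 CPM at E15.5, 233 CPM at E17.5 and 293 CPM at P0. Lmod1 was at 270.5 CPM in the transplant, 103 CPM at E15.5, 145 CPM at E17.5 and 167 CPM at P0, on between 10 UMIs (E17.5) and 126 (transplant). The transplant was highest of the 4 for Myh11 and Lmod1, which encode the motor and a nucleator of actin filaments. For Cnn1 the highest was E15.5, and P0 over E15.5 was 0.713-fold (0.497 to 1.02).

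Of the 10 members, 10 passed the filter for P0 over E15.5 in smooth muscle, 1 was higher and 1 lower at 2-fold, where 11.6% of all genes tested were higher and 7.99% lower. The higher one was Actg2, 2.67-fold (1.36 to 5.69), at 201 CPM at P0 and 75.3 CPM at E15.5. At P0, 70.8% of its UMIs lay in 2 of the 37 cells, and 6 cells had any. The lower one was Acta1, with 0 UMIs at P0 and 28 at E15.5, at least 15.3-fold lower against a floor of 3 UMIs at P0. At E15.5 75% of those UMIs lay in 1 cell, and 2 of 10 cells had any. Tpm2, tropomyosin, was at 1717 CPM in the transplant, 1019.7 CPM at E15.5, 959 CPM at E17.5 and 1944 CPM at P0, which is 1.91-fold (1.58 to 2.31) at P0 over E15.5. The 2 calls thus rested on few cells, while Tpm2 was just under 2-fold. The median log2 ratio over the members was 0.36, beside -0.04 over all genes tested. Summed over 10 dissociation stress genes, the list stood at 5461 CPM in the transplant, 2121 at E15.5, 5974 at E17.5 and 11602 in the P0 library in this class; its part in the P0 values was not tested.

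P0 over E17.5 had 9 members past the filter, of which 1 was higher and 0 lower, beside 9.16% of all genes higher and 6.91% lower. Tpm2 was the higher one, 2.03-fold (1.56 to 2.66). Tagln was 1.74-fold (1.46 to 2.09) and Myl9 1.69-fold (1.42 to 2.03), under the limit. In the transplant over P0, 9 members passed, 1 was higher and 1 lower, beside 14.6% and 5.49% of all genes. Des was 3.82-fold (2.26 to 6.90), with 255 CPM in the transplant, 68.4 CPM at E15.5, 58.1 CPM at E17.5 and 66.9 CPM at P0 and 119 UMIs in the transplant against 16 at P0. Actg2 was 0.321-fold (0.196 to 0.517), at 64.4 CPM in the transplant and 201 CPM at P0. In the transplant 8 of 93 cells had an Actg2 UMI and 1 cell held 40% of them. Des was spread over more cells, with a UMI in 45 of 93 transplant cells and 10 of 37 P0 cells. Transplant over E17.5 had 2 members higher and 1 lower of 9, beside 17.2% higher and 7.63% lower. Those were Myl9 at 2.51-fold (2.12 to 2.99), Des at 4.39-fold (1.67 to 16.4) on 4 UMIs at E17.5, and Actg2 at 0.369-fold (0.184 to 0.792). Of the 93 transplant cells, 82 lay in a cluster that all libraries share, with Acta2 at 9041 CPM and Myh11 at 1056 CPM. The other 11 lay in a cluster of almost only transplant cells, with Acta2 at 2574 CPM and Myh11 at 36.5 CPM.

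**Figure D2:**
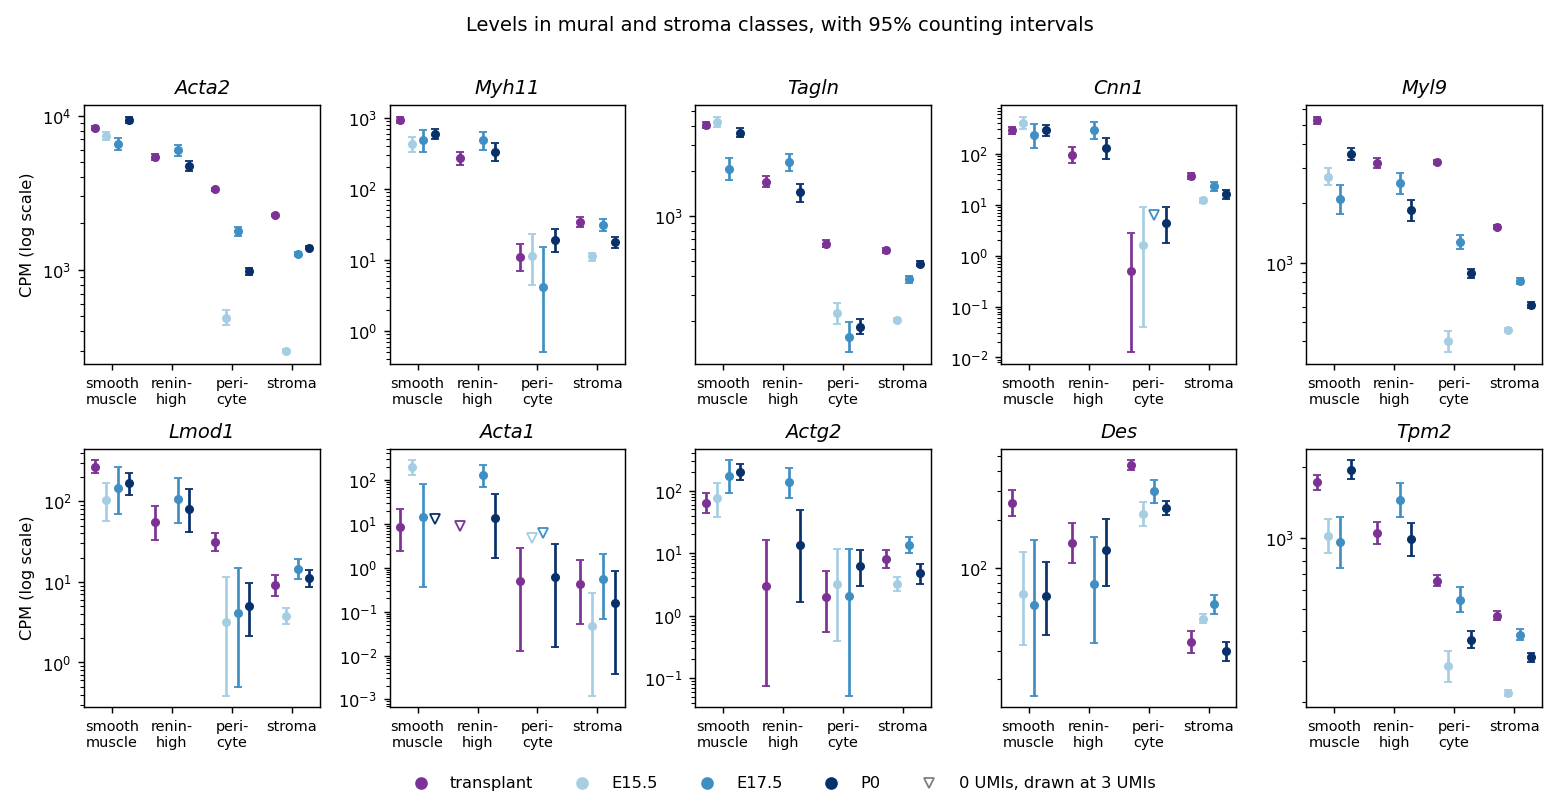
CPM on a log axis, with exact 95% counting intervals, of the 10 genes in smooth muscle, renin-high, pericyte and mesangial and stromal cells, by library; open triangles stand for 0 UMIs and are drawn at the level of 3 UMIs. In smooth muscle Acta2 lay between 6570.1 and 9391 CPM in all 4 libraries, and in the pericyte and mesangial class it lay between 490.5 and 3327 CPM.

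Renin-high cells had lower levels than smooth muscle cells of the same library for 5 of 9 members tested in the transplant and 4 of 9 at P0, and for 0 of 8 at E17.5. The shares of all genes lower in the same comparisons were 7.94% in the transplant, 6.27% at E17.5 and 10.9% in the P0 library, and the counts of members higher were 0 in all 3, beside 2.61% of all genes in the transplant, 5.55% at E17.5 and 2.66% in the P0 library. There were 80 such cells in the transplant, 21 at E17.5 and 22 in the P0 library; the 3 cells at E15.5 were too few for a ratio. Myh11 in the transplant was 0.291-fold (0.230 to 0.365), at 273 CPM in renin-high cells and 936 CPM in smooth muscle. At P0 Myh11 was 0.558-fold (0.395 to 0.777), inside the limit. Lmod1 was 0.206-fold (0.120 to 0.335) in the transplant and 0.485-fold (0.232 to 0.943) at P0, and Cnn1 0.336-fold (0.223 to 0.495) and 0.439-fold (0.25 to 0.737) in these libraries. Actg2, the remaining call in both, had 1 UMI in renin-high cells of the transplant and 2 at P0. Tagln was 0.417-fold (0.379 to 0.458) in the transplant and 0.400-fold (0.343 to 0.466) at P0, so it was lower in renin-high cells in both. Acta2 in renin-high cells was at 5372 CPM in the transplant, 5962 CPM at E17.5 and 4717 CPM at P0, and Myl9 at 3211 CPM in the transplant, 2528 CPM at E17.5 and 1845 CPM at P0. The smooth muscle markers had medians in renin-high cells of 8.60 per 10000 in the transplant, 13.3 at E17.5 and 12.4 at P0. In the smooth muscle class, which takes only cells with 12 or more per 10000, they were 33.7, 20.5 and 24.8. Renin-high cells have no such minimum. Lower levels in them of members that run with these markers can thus be in part set by the threshold, which was not tested. Between libraries, renin-high cells differed in Cnn1 past 2-fold, at 96.8 CPM in the transplant, 295 CPM at E17.5 and 128 CPM at P0. Transplant over E17.5 was 0.328-fold (0.194 to 0.556) and P0 over E17.5 0.435-fold (0.231 to 0.799). Those were the single members called, beside 7.83% of all genes lower and 13.0% higher in the first of these comparisons and 7.57% and 5.66% in the second. No member was called in the transplant over P0 of 8 tested, beside 17.1% of all genes higher and 5.59% lower. The 13 Acta1 UMIs of renin-high cells at E17.5 all lay in 1 cell.

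Pericyte and mesangial cells of the transplant had more of 4 contractile genes than those of P0. Of 7 members tested, Acta2, Tagln, Myl9 and Lmod1 were higher and 0 were lower, beside 17.2% of all genes higher and 6.43% lower. Acta2 was at 3327 CPM in the transplant, 491 CPM at E15.5, 1788 CPM at E17.5 and 981 CPM at P0, 3.39-fold (3.21 to 3.59) over P0. Myl9 was at 3222 CPM in the transplant, 401 CPM at E15.5, 1277 CPM at E17.5 and 886 CPM at P0, 3.64-fold (3.43 to 3.85) over P0. Tagln was at 655 CPM in the transplant, 225 CPM at E15.5, 157 CPM at E17.5 and 183 CPM at P0, 3.57-fold (3.15 to 4.07) over P0. In all 3 the transplant was highest, and E15.5 was lowest for Acta2 and Myl9. Lmod1 was 6.38-fold (3.05 to 15.4), with 63 UMIs in the transplant and 8 at P0. Des and Tpm2 were 1.86-fold (1.64 to 2.10) and 1.78-fold (1.61 to 1.96), under the limit. Myh11, at 11 CPM in the transplant, 11.2 CPM at E15.5, 4.14 CPM at E17.5 and 19.2 CPM at P0, was 0.575-fold (0.317 to 1.03). The median log2 ratio over members was 1.76, beside 0.30 over all genes tested.

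This difference was smaller within the cluster that the libraries share. Of 387 transplant cells, 264 lay in a cluster of 284 cells of which 282 were from the transplant, led by Serpine2, Agtr1a and Adamts5, which may be that library and not a cell type. Those 264 cells had Acta2 at 3666 CPM, Myl9 at 3751 CPM, Lmod1 at 36.5 CPM and Des at 459 CPM. Over the 123 transplant and 267 P0 cells of the shared cluster, which also holds smooth muscle and renin-high cells, Acta2 was 2.15-fold (1.98 to 2.33) and Tagln 2.02-fold (1.66 to 2.46). Myl9 was 1.5-fold (1.36 to 1.66) and Lmod1 2.79-fold (0.799 to 9.18). The count of members past 2-fold was then 2, Acta2 and Tagln, and Lmod1 no longer passed the filter with 6 UMIs in the transplant and 8 at P0.

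Transplant over E17.5 had 4 of 7 members higher and 0 lower, beside 15.2% and 6.25% of all genes. They were Tagln at 4.16-fold (3.30 to 5.32), Myl9 at 2.52-fold (2.32 to 2.74), Lmod1 at 7.63-fold (2.03 to 64.4) on 2 UMIs at E17.5, and Myh11 at 2.67-fold (0.655 to 23.4) on 2 UMIs at E17.5. The Myh11 log2 ratio turned to -0.0203 with libraries clustered alone and to -0.97 with single-cell gates. Acta2 was 1.86-fold (1.73 to 2.0). In the shared cluster Tagln was past 2-fold at 2.47-fold (1.86 to 3.32), and Acta2 was 1.21-fold (1.10 to 1.33). P0 over E15.5 had 1 of 6 members higher and 0 lower, beside 16.5% and 10.5%. That was Myl9, 2.21-fold (1.93 to 2.54), and Acta2 was just under the limit at 2.0-fold (1.77 to 2.27). P0 over E17.5 had 1 of 6 higher, beside 6.28% of all genes, and 0 lower, beside 6.08%. This was Myh11 at 4.63-fold (1.18 to 40) on 2 UMIs at E17.5, with the 31 UMIs at P0 in 11 of 268 cells and 9 of them in 1 cell, and with single-cell gates its log2 ratio was -0.19. At the same ages Acta2 was 0.549-fold (0.505 to 0.597). Erythroid markers summed to 2396 CPM in the transplant, 756 at E15.5, 6.21 at E17.5 and 16.1 in the P0 library in this class, and the stress list to 4433 CPM in the transplant, 1844 at E15.5, 8459 at E17.5 and 14117 in the P0 library; their part in the ratios was not tested.

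**Figure D3:**
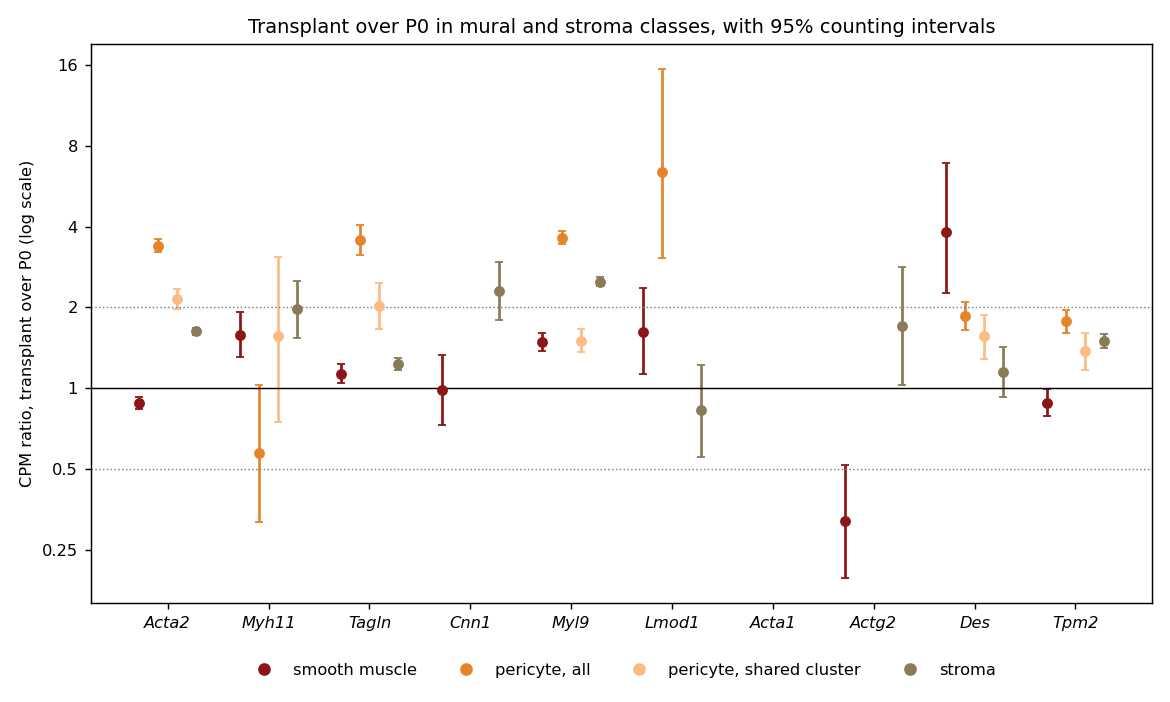
Ratio of transplant over P0 CPM on a log axis, with exact 95% counting intervals, for the 10 genes in smooth muscle, in the pericyte and mesangial class, in its cells of the shared cluster, and in stroma; dotted lines mark 2-fold and no ratio is drawn for Acta1. In pericytes Acta2 stood at 3.39-fold over all cells and 2.15-fold in the shared cluster.

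Stroma, the connective tissue between the tubules, had lower levels of most contractile genes than smooth muscle, and its Acta2 was lowest at E15.5. Acta2 was at 2267 CPM in the transplant, 301 CPM at E15.5, 1261 CPM at E17.5 and 1391 CPM at P0, and P0 was 4.62-fold (4.48 to 4.77) over E15.5. Tagln was at 593 CPM in the transplant, 202 CPM at E15.5, 379 CPM at E17.5 and 483 CPM at P0, 2.38-fold (2.28 to 2.50) at P0 over E15.5. Lmod1 was at 9.13 CPM in the transplant, 3.80 CPM at E15.5, 14.5 CPM at E17.5 and 11 CPM at P0, 2.90-fold (2.08 to 4.04). These were the 3 of 9 members higher at P0 over E15.5, and 0 were lower, beside 8.27% and 8.91% of all genes. Myl9 was at 1525 CPM in the transplant, 456 CPM at E15.5, 810.2 CPM at E17.5 and 613 CPM at P0. In the transplant over P0, 2 of 9 were higher and 0 lower, beside 13.6% and 6.87%. These were Myl9 at 2.49-fold (2.40 to 2.59) and Cnn1 at 2.30-fold (1.79 to 2.96). Myh11 was just under the limit at 1.96-fold (1.54 to 2.52). P0 over E17.5 had 1 of 9 lower, Actg2 at 0.347-fold (0.214 to 0.555), and 0 higher, beside 3.71% and 2.89%. Transplant over E17.5 had 0 of 9 in either direction, beside 11.2% higher and 8.28% lower. The stroma of the libraries lay in different clusters. Of the transplant cells, 714 lay in a Dcn cluster with Acta2 at 1986 CPM. A Nts and Penk cluster had Acta2 at 2182 CPM at P0 and 2473 CPM at E17.5. The E15.5 cells lay mostly in a Col3a1 cluster with Acta2 at 584 CPM, a Meis1 cluster at 303 CPM and a Foxd1 cluster at 24.8 CPM. Acta2 and Actg2 are among the leading genes of the Nts and Penk cluster, although neither was used to build it. With the Tbx18 and Myocd cells described next kept in the stroma, the members past 2-fold numbered 5 for P0 over E17.5, 5 for the transplant over P0 and 2 for the transplant over E17.5. For P0 over E15.5 they were still 3, but Lmod1 was 1.90-fold (1.40 to 2.55) and no longer called, and Acta1 was called at 51.6-fold (13.2 to 444) on 2 UMIs at E15.5.

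A small stromal subcluster of 8 transplant, 15 E15.5 and 8 E17.5 cells, with 1 cell at P0, had the highest levels of Actg2 and Cnn1 of the classes. It was taken from 19 stromal subclusters by its Tbx18 and Myocd levels, 364 and 101 CPM over all its cells, with Tshz3 at 73.2 CPM and Hand2 at 0; Tbx18 and Tshz3 are known from ureteral muscle development and Myocd is a coactivator of SRF, but the subcluster is left unnamed. Actg2 was at 1882 CPM in the transplant, 1236 CPM at E15.5 and 4561 CPM at E17.5. Myh11 was at 2496 CPM in the transplant, 950.0 CPM at E15.5 and 3826 CPM at E17.5. Cnn1 was at 2400.1 CPM in the transplant, 645 CPM at E15.5 and 1639.7 CPM at E17.5. All 3 were above the smooth muscle class in each of these libraries, and E15.5 was the lowest of the 3 libraries for each. Acta2 was at 19988 CPM in the transplant, 6675 CPM at E15.5 and 16095 CPM at E17.5. Acta1 was at 1382 CPM in the transplant, 3.18 CPM at E15.5 and 0 at E17.5, and in the transplant 1 cell held 26.4% of its UMIs. Cardiac muscle markers were also present here, summed to 1421 CPM in the transplant, 241 at E15.5 and 1300.4 at E17.5, with Myh7, Nppa and Myl7 at 0. Skeletal muscle markers summed to 499 CPM in the transplant, 82.6 at E15.5 and 659.6 at E17.5, with Myod1, Myog and Myh3 at 0. In the smooth muscle class the cardiac list was at 0 in all 4 libraries. Their part in the Acta1 and Actg2 values of the subcluster was not tested. The subcluster held 22% of the Cnn1 UMIs in the transplant, 34.4% at E15.5 and 36.2% at E17.5.

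Within each library, smooth muscle set against pericytes separated the members. Of those tested, 7 of 9 were higher and 0 lower in the transplant, 7 of 8 and 1 at E15.5, 3 of 6 and 1 at E17.5, and 8 of 9 and 1 at P0. Of all genes, 6.13% were higher and 11.9% lower in the transplant, 9.86% and 14.3% at E15.5, 7.38% and 16.2% at E17.5, and 7.61% and 16.3% at P0. Myh11 was 84.8-fold (55.3 to 137) in the transplant, 37.9-fold (17.4 to 98.3) at E15.5, 116-fold (29.6 to 997) at E17.5 on 2 pericyte UMIs, and 30.9-fold (20.9 to 47.2) at P0. Acta2 was 2.49-fold in the transplant, 15.1-fold at E15.5, 3.67-fold at E17.5 and 9.57-fold at P0, so it was higher in smooth muscle in all 4. Des, by contrast, was lower in smooth muscle at E15.5, E17.5 and P0, with 0.315-fold (0.148 to 0.597) at E15.5, 0.194-fold (0.0521 to 0.507) at E17.5 and 0.283-fold (0.160 to 0.465) at P0. In the transplant it was 0.582-fold (0.477 to 0.706), inside the limit. Cnn1 had at most 1 UMI in pericytes of the transplant, E15.5 and E17.5, so those ratios are not given. Against stroma, 9 of 9 members were higher in the transplant, 9 of 10 at E15.5, 8 of 9 at E17.5 and 9 of 9 at P0, and 0 were lower in each. Of all genes, 9.76% were higher and 18.1% lower in the transplant, 13.2% and 35.6% at E15.5, 15.3% and 30.4% at E17.5, and 10.7% and 24.9% at P0. The thresholds that divide these classes use marker genes and none of the members, but the classes share a cluster. Kcnmb1, a marker in the smooth muscle threshold, ran with Myh11 (r = 0.939) and Lmod1 (r = 0.894) over classes and libraries. Higher levels of such members in smooth muscle than in pericytes were thus in part set by the threshold.

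Pericytes and mesangial cells set against stroma of the same library were marked by desmin. Des was 12.8-fold (10.8 to 15.2) in the transplant, 4.53-fold (3.75 to 5.42) at E15.5, 5.05-fold (4.06 to 6.26) at E17.5 and 7.88-fold (6.61 to 9.40) at P0, the one member past 2-fold in all 4 libraries. Acta2, the usual marker of contractile mural cells, was within 2-fold of stroma or lower, at 1.47-fold in the transplant, 1.63-fold at E15.5, 1.42-fold at E17.5 and 0.705-fold at P0. Cnn1 was 0.269-fold (0.106 to 0.575) at P0 on 7 UMIs, and Tagln was 0.380-fold (0.336 to 0.428). The pericyte and mesangial class is what the smooth muscle and renin thresholds left of the mural cells. The smooth muscle and renin-high cells so removed had Acta2 at 9391 and 4717 CPM at P0. Stroma was not divided by these thresholds and lost only the Tbx18 and Myocd cells. Low ratios of pericytes over stroma can thus be in part set by the thresholds, which was not tested. The members higher and lower of 9 tested were 3 and 3 in the transplant, 1 and 1 at E15.5, 1 and 5 at E17.5, and 1 and 3 at P0. All genes gave 9.94% higher and 12.4% lower in the transplant, 6.15% and 20.3% at E15.5, 7.56% and 15.9% at E17.5, and 8.59% and 14.8% at P0.

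**Figure D4:**
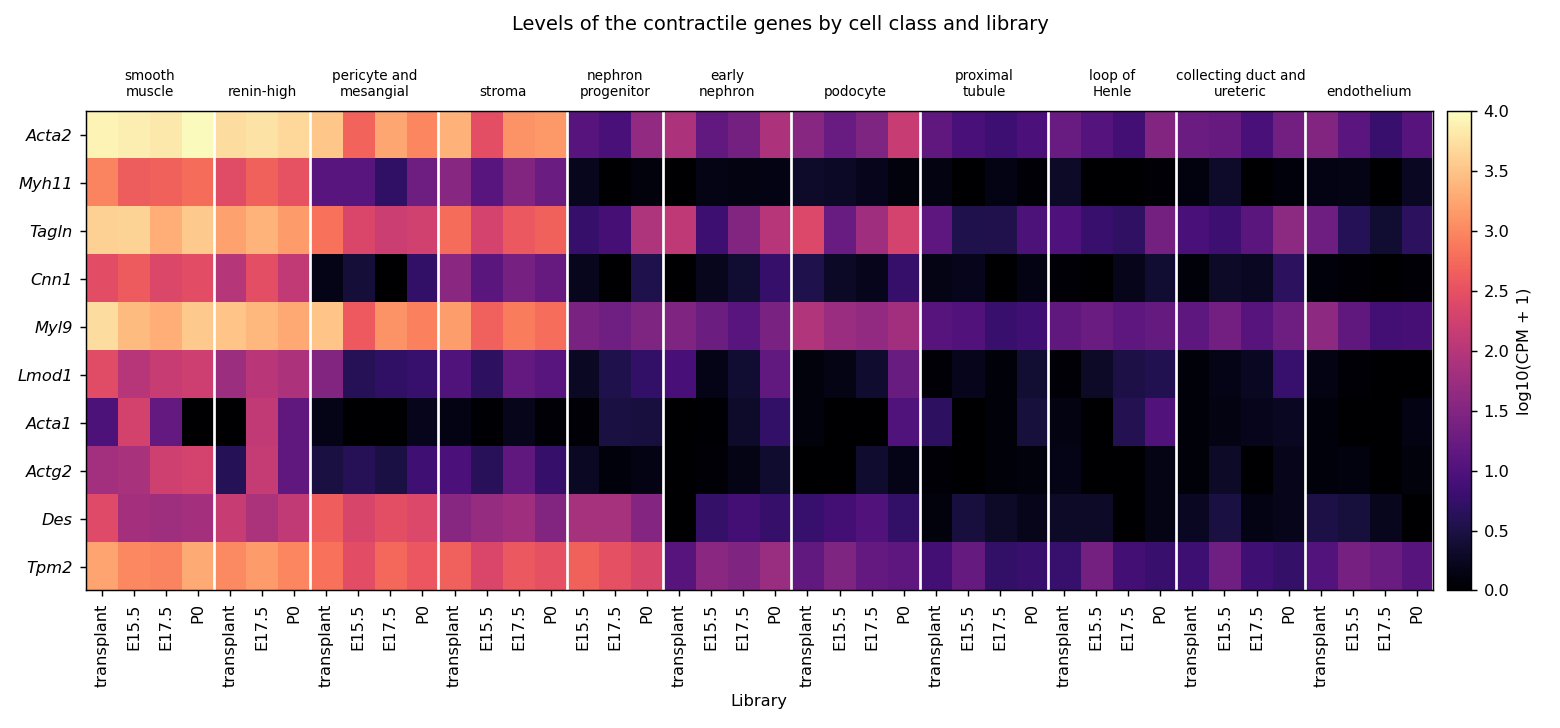
Levels of the 10 genes (rows) as log10(CPM + 1) in each cell class (columns) and library, for classes with at least 10 cells in a library. Not every class is drawn, and the Tbx18 and Myocd cells are not among the columns. Des is high in pericytes and in nephron progenitors.

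In the early nephron, the epithelium between progenitors and tubules, 6 members were higher at P0 than at E15.5, at levels far below those of smooth muscle. Of 9 tested, 6 were higher and 0 lower at 2-fold, beside 7.17% and 7.39% of all genes. Acta2 was at 80.4 CPM in the transplant, 14.1 CPM at E15.5, 22.1 CPM at E17.5 and 80.6 CPM at P0, 5.73-fold (5.06 to 6.50) at P0 over E15.5. Tagln was at 121 CPM in the transplant, 5.59 CPM at E15.5, 31.6 CPM at E17.5 and 103 CPM at P0, 18.4-fold (15.2 to 22.3). Lmod1 was at 7.31 CPM in the transplant, 0.530 CPM at E15.5, 1.31 CPM at E17.5 and 13.9 CPM at P0, 26.2-fold (14.5 to 53.1). P0 was highest of the 3 kidneys in situ for each of these, with E15.5 lowest. Cnn1 was 7.02-fold (4.01 to 13.3), with 109 UMIs at P0 and 14 at E15.5. Acta1 was 88.4-fold (15.5 to 3528) on 1 UMI at E15.5, and Actg2 8.42-fold (2.60 to 43.3) on 3. Myl9, Tpm2 and Des were within 2-fold, at 1.36, 1.42 and 1.07-fold. Myh11, the myosin heavy chain, did not pass the filter, with 9 UMIs at P0 and 10 at E15.5. The median log2 ratio over members was 2.77, beside -0.10 over all genes tested. P0 over E17.5 had 7 of 9 higher and 0 lower, beside 4.59% and 4.13%, the 7 being the 6 above and Myl9, with Lmod1 at 10.6-fold (5.84 to 21.4). Thinned to 3000 UMIs per cell, 3 members were past 2-fold for P0 over E15.5 and 4 for P0 over E17.5.

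Early nephron cells with an Lmod1 UMI at P0 often had UMIs of other members as well. Of the 188 P0 early nephron cells with an Lmod1 UMI, 56.9% had an Acta2 UMI and 66.5% a Tagln UMI, against 30.8% and 32.3% of the 1231 cells without one. Median depth was 17232.5 UMIs in these 188 cells and 14426 in the others, a difference in depth that runs with these shares. In the 188 cells Cnn1 was detected in 16%, against 3.82% of the others. Myh11 was at 1.06% and 0.569%. Myl9 was at 50% and 20.5%, Acta1 at 6.38% and 1.71%, and Actg2 at 3.19% and 1.06%. Des, at 6.38% and 5.69%, and Tpm2, at 37.2% and 32.1%, differed little between these cells. Endothelium was taken as a class that should lack these genes, as a measure of free RNA. After thinning each cell to 3000 UMIs, Acta2 was detected in 13.5% of early nephron cells at P0 and 5.03% at E15.5, and of endothelial cells in 2.46% at P0 and 5.18% at E15.5. Tagln was in 16.8% at P0 and 1.68% at E15.5, and in endothelium in 1.41% at P0 and 1.04% at E15.5. Lmod1 was in 3.81% at P0 and 0.168% at E15.5, with 0 in endothelium at both. The Acta2 share at E15.5 was not above the endothelial one and is read as background. The P0 shares of all 3 genes were above the endothelial ones. Erythroid cells had first been planned for this measure, together with leukocytes. At P0 their Acta2 level, given below, was above that of the early nephron, and 103 erythroid cells held 7.73% of the Actg2 UMIs. Being above endothelium therefore does not place the P0 shares above free RNA, whose part was not tested. Unthinned, Acta2 was in 34.2% of P0 and 34.4% of E15.5 early nephron cells; the median early nephron cell had 14849 UMIs at P0 and 31222 at E15.5, and the median endothelial cell 8499.5 at P0 and 26234 at E15.5.

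Some early nephron cells, 591 at P0 and 118 at E15.5, had no UMI of the smooth muscle, renin and pericyte markers. Gata3, Itga8 and Serpine2 were left out of these markers. Among those cells Acta2 was 2.98-fold (2.21 to 4.09) and Tagln 20.1-fold (10.8 to 42.1) at P0 over E15.5. Lmod1 was 15-fold (4.01 to 125), on 2 UMIs at E15.5. In podocytes, the filtering cells of the glomerulus, 5 of 8 members tested were higher at P0 over E15.5 and 1, Tpm2, lower, beside 8.19% and 4.58% of all genes. There Acta2 was at 144 CPM at P0 and 16.4 CPM at E15.5, Tagln at 201 CPM at P0 and 16.4 CPM at E15.5, and Lmod1 at 16.9 CPM at P0 and 0.483 CPM at E15.5 (1 UMI). The other members higher in podocytes were Cnn1 and Acta1. In nephron progenitors 4 of 7 were higher, Acta2, Tagln, Cnn1 and Lmod1, and 2 lower, beside 7.65% and 13.2%. Progenitors at P0 and at E15.5 lay mostly in different clusters, as given below. Tagln was at 82.9 CPM at P0 and 4.75 CPM at E15.5 there. In proximal tubule Acta2 was at 8.05 CPM at P0 and 7.52 CPM at E15.5, and in endothelium at 10.7 CPM at P0 and 11.5 CPM at E15.5. Tagln was higher at P0 in proximal tubule as well, at 8.33 CPM at P0 and 2.51 CPM at E15.5 (4 UMIs). In collecting duct Tagln was 6.93-fold (5.07 to 9.68), at 39 CPM at P0 and 5.62 CPM at E15.5, and in loop of Henle Acta2 was 2.90-fold (1.54 to 6.14), at 29.9 CPM at P0 and 10.3 CPM at E15.5. The higher levels at P0 were thus found in several epithelia. Erythroid cells had Acta2 at 189 CPM at P0 and 93.7 CPM at E15.5, with 50% and 41.1% of those UMIs in 1 cell of each library, and the part of free RNA was not tested. The stress list in the early nephron summed to 2889.7 CPM in the transplant, 1689.8 at E15.5, 3799 at E17.5 and 5270.3 in the P0 library. In endothelium, with Acta2 at 10.7 CPM at P0 and 11.5 CPM at E15.5, the list was higher at P0 as well. There it summed to 4586 CPM in the transplant, 1173 at E15.5, 3721 at E17.5 and 7462 in the P0 library. SRF-linked immediate early genes, in a list of 11 of which 9 passed the filter and all 9 were higher at P0 over E15.5, summed to 3540.0 CPM in the transplant, 720.3 at E15.5, 3229 at E17.5 and 3246 in the P0 library in the early nephron. In endothelium they summed to 4631 CPM in the transplant, 716 at E15.5, 2728 at E17.5 and 4264 in the P0 library. The part of the stress and immediate early lists in the contractile values was not tested.

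The transplant held 23 early nephron cells, too few for a stable level. Its Acta2 and Tagln, at 80.4 and 121 CPM, had 86.4% of the Acta2 UMIs and 87.9% of the Tagln UMIs in 1 cell. Transplant over P0 had 0 of 9 members higher and 5 lower, beside 19.4% and 20.1% of all genes. For Cnn1, Acta1, Actg2 and Des the call rests on 0 UMIs, where the limit of 3 UMIs is 11 CPM and lies above the P0 level, so no difference was detectable at this depth. Tpm2, the fifth, was 0.208-fold (0.0429 to 0.611) on 3 UMIs. Transplant over E17.5 had 3 of 5 higher, Acta2, Tagln and Myl9, and 2 lower, beside 12.8% and 16.4%. Of the lower ones, Tpm2 had 3 UMIs in the transplant. Des had 0 there, which allows up to 11 CPM, above its 6.57 CPM at E17.5, so no difference in Des was detectable. Without doublet removal Acta2 and Tagln were lower in the transplant instead, with log2 ratios of -1.10 and -1.48, and Tpm2 higher, with 0.37.

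**Figure D5:**
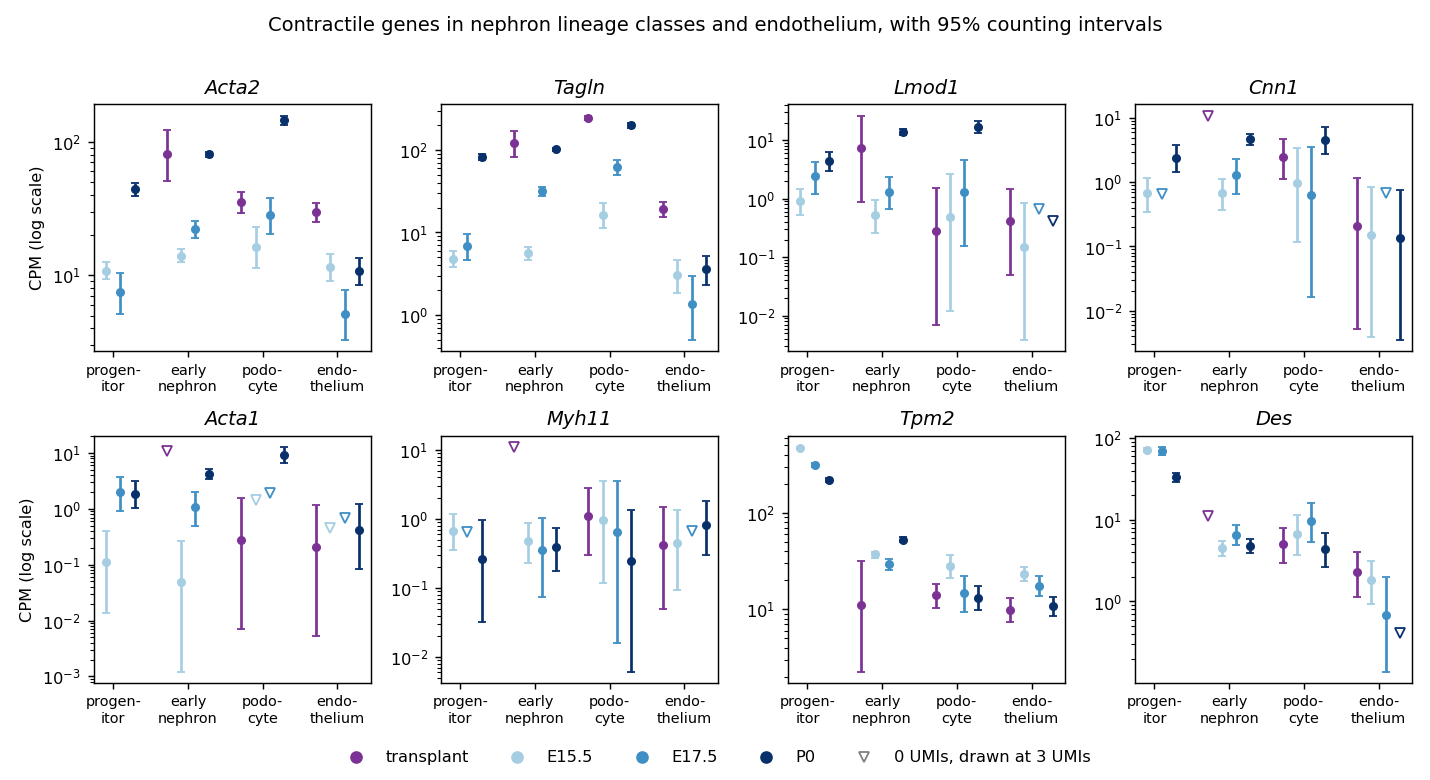
CPM of 8 members on a log axis, with exact 95% counting intervals, in nephron progenitors, early nephron, podocytes and endothelium by library; open triangles stand for 0 UMIs. In the early nephron Lmod1 stood at 0.530 CPM at E15.5, 1.31 at E17.5 and 13.9 in the P0 library, and Tpm2 and Des were highest in nephron progenitors.

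Tpm2 and Des, tropomyosin and desmin, were the members higher in nephron progenitors than in the early nephron, and both were lowest at P0. Tpm2 was at 470.0 CPM at E15.5, 312 CPM at E17.5 and 218 CPM at P0, 0.464-fold (0.439 to 0.489) at P0 over E15.5. Des was at 70.8 CPM at E15.5, 69.2 CPM at E17.5 and 32.9 CPM at P0, 0.465-fold (0.404 to 0.533). These are the 2 members lower in progenitors at P0 over E15.5. The progenitors of these stages lay mostly in different clusters. A cluster led by Spock2 held 597 of 639 P0 cells and 59 of 682 E15.5 cells. The clusters led by Cited1 and by Six2 held 436 and 187 E15.5 cells, and 22 and 20 P0 cells. The part of this in the ratios was not tested. Over the early nephron of the same library Des was 15.8-fold (12.8 to 19.7) at E15.5, 10.5-fold (7.90 to 14.3) at E17.5 and 6.88-fold (5.48 to 8.70) at P0. Tpm2 was 12.7-fold (11.8 to 13.7) at E15.5, 10.7-fold (9.33 to 12.3) at E17.5 and 4.15-fold (3.85 to 4.47) at P0. These were the members higher in progenitors in all 3 libraries, 2 of 8 tested at E15.5, 2 of 6 at E17.5 and 2 of 9 at P0, beside 5.12% of all genes at E15.5, 5.04% at E17.5 and 3.67% in the P0 library. None was lower at E15.5, while Acta2 and Tagln were lower at E17.5 and 3 members were lower at P0, beside 13.2%, 13.3% and 15%. After thinning to 3000 UMIs, Tpm2 was in 69.4% of progenitors at E15.5, 55.5% at E17.5 and 40.5% in the P0 library. Des was in 21.3% at E15.5, 18.1% at E17.5 and 7.34% in the P0 library. The transplant held 0 progenitor cells.

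An unnamed cluster of 330 transplant, 24 E15.5, 76 E17.5 and 273 P0 cells, led by Ms4a2, Cpe, Hp and Tagln, had Tagln at 2042 CPM in the transplant, 1529 at E15.5, 613 at E17.5 and 764 in the P0 library. Its Acta2 was at 895 CPM in the transplant, 395 CPM at E15.5, 136 CPM at E17.5 and 165 CPM at P0. Both genes were highest in the transplant, and Tagln was not used to build the cluster.

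Other genes of the pathway were read from 9 lists, and in smooth muscle few were past 2-fold outside the immediate early and stress genes. At P0 over E15.5, of the myosin and light chain regulation list 0 of 13 were higher and 0 lower, of the thin filament list 0 of 10 were higher and 0 lower and of the actins 0 of 2 were higher and 0 lower. Ppp1r12a, the targeting subunit of myosin phosphatase, was 1.94-fold (1.35 to 2.84). Of the dense plaque list 1 of 9 were higher and 0 lower, of the calcium and cGMP list 0 of 4 were higher and 0 lower, and of the vasoactive receptors 1 of 2 were higher and 0 lower, where Ednrb, an endothelin receptor, was 4.03-fold (2.06 to 8.79). Of the transcription regulators 1 of 5 were higher and 1 lower, the lower one being Heyl, an effector of Notch, at 0.471-fold (0.298 to 0.738). By contrast, of the SRF-linked immediate early genes 7 of 8 were higher and 0 lower, and of the dissociation stress genes 9 of 9 were higher and 0 lower; Ctgf was 19.5-fold (5.19 to 165) and Jun 8.38-fold (6.17 to 11.7).

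In smooth muscle of the transplant over P0, of the myosin list 1 of 13 were higher and 0 lower, of the thin filament list 0 of 10 were higher and 0 lower, of the dense plaque list 2 of 13 were higher and 0 lower, of the calcium and cGMP list 1 of 8 were higher and 0 lower, and of the receptors 1 of 3 were higher and 1 lower. Agtr1a, the angiotensin receptor of vessels, was 6.84-fold (3.89 to 13.1) and Ednrb 0.366-fold (0.246 to 0.540). Myl12b, a light chain of non-muscle myosin, was 2.25-fold (1.39 to 3.81). Of the stress genes 1 of 10 were higher and 7 lower, with Hspa1a at 0.181-fold (0.148 to 0.221), whose reads may be shared with its near-identical copy. In pericytes at P0 over E15.5, of the myosin list 2 of 12 were higher and 0 lower, of the dense plaque list 3 of 9 were higher and 0 lower, of the calcium and cGMP list 3 of 7 were higher and 0 lower, of the receptors 4 of 5 were higher and 0 lower and of the stress genes 10 of 10 were higher and 0 lower. Mylk, the kinase of the regulatory light chain, was 2.45-fold (1.94 to 3.11), and Prkg1, the cGMP-dependent kinase, 6.74-fold (2.78 to 21.3). In pericytes of the transplant over P0, of the myosin list 2 of 12 were higher and 0 lower, of the dense plaque list 3 of 11 were higher and 0 lower, of the transcription regulators 0 of 9 were higher and 4 lower and of the stress genes 0 of 10 were higher and 7 lower. Dmd, dystrophin, was 4.19-fold (2.23 to 8.54), Flna, filamin, 2.73-fold (2.37 to 3.16), and Hey1, a Notch effector, 0.0908-fold (0.0482 to 0.158). In both comparisons Agtr1a was higher, at 3.19-fold (2.86 to 3.56) in the transplant over P0 and 3.25-fold (2.41 to 4.46) at P0 over E15.5. The shares of all genes past 2-fold are those given above for the same comparisons.

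The genes whose levels were most like those of 6 members were found over 57 sums of a class in a library, which share libraries and depth. Acta2 was most like Myl9 (r = 0.974), Mylk (r = 0.934), Rgs5 (r = 0.933), Mgp (r = 0.932) and Gucy1b1 (r = 0.924). Myh11 was most like Cnn1 (r = 0.958), Kcnab1 (r = 0.947), Kcnmb1 (r = 0.939), Cacna1c (r = 0.932) and Itga7 (r = 0.930), a calponin and several channel subunits with an integrin. Lmod1 was most like Cnn1 (r = 0.922), Myh11 (r = 0.915), Itga7 (r = 0.902), Kcnmb1 (r = 0.894) and Kcnab1 (r = 0.894). Actg2 was most like Cnn1 (r = 0.855), Lmod1 (r = 0.795), Myh11 (r = 0.788), Cacna1c (r = 0.771) and Fbxl22 (r = 0.746). Des was most like Tpm2 (r = 0.911), Tram1l1 (r = 0.907), Ednra (r = 0.903), Fam171b (r = 0.900) and Itga8 (r = 0.899). Acta1 was most like Actc1 (r = 0.723), Pou5f1 (r = 0.715) and Kiss1 (r = 0.667), the first of which is the cardiac actin, near-identical to it.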

How the data were processed

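The authors deposited UMI counts per gene and barcode for each library, which per the file headers were made with Cell Ranger 3.0.2 (E15.5, P0) and 3.1.0 (E17.5, transplant); the submitters' processing notes name GRCm38 and Cell Ranger 3.1.0. A joined matrix of 3 libraries was not used here, and 0 columns of other samples were present. The members and the gene lists were chosen with earlier results of these data known.

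Barcodes needed 500 or more genes and no more than 20% mitochondrial UMIs, and the highest doublet scores were removed at 0.8% per 1000 cells. The 4 libraries were clustered together on 2000 variable genes without the members and the wider contractile lists (40 principal components, 15 neighbours, Leiden resolution 1.5; Python 3.11.15, numpy 2.4.6, pandas 2.3.3, scipy 1.17.1, scikit-learn 1.9.0, igraph 0.11.9, leidenalg 0.10.2, matplotlib 3.10.9), giving 40 clusters. A cluster took a class name when at least 3 of its markers were 2-fold above the other cells; details of the naming and the thresholds within the mural clusters were set after the data had been seen. Stroma was clustered again on 1500 genes and 30 components at resolution 1.5.

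Counts were summed per class and library where at least 10 cells were present. The levels of the Tbx18 and Myocd cells are an exception, with 8 cells each in the transplant and at E17.5. Exact conditional binomial intervals (95%) go with ratios of CPM, and levels have exact Poisson intervals and shares of cells have Clopper-Pearson intervals, all of counting error only. A level of 0 was bounded with a floor of 3 UMIs, and log2 ratios add 0.5 UMI to each side. A call rule of 2-fold with at least 20 UMIs over both sides stands in place of a test, and the script was tested on simulated data. The genes named from the other lists are from the 2 highest and 2 lowest ratios with at least 50 UMIs; the genes most like a member are those with the highest Pearson correlation of log2(CPM + 10) over sums of at least 20 cells. Some genes that these rules name are left out of the text. The alternatives changed the fold limit, the UMI minimum, the cell filters, the clustering, doublet removal, the depth per cell and the scaling.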

Additional observations from a re-analysis of the deposited data

Results flagged for a closer look

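The P0 library is labelled wild type and held 8181 tdTomato UMIs, where the other 3 libraries held 0. By CPM, tdTomato in the P0 cells used stood at 702 in smooth muscle, 608 in renin-high cells, 542 in pericytes and mesangial cells and 284 in stroma. The other classes of 10 or more cells lay between 23.9 CPM in the early nephron and 185 CPM in lymphoid cells, with podocytes at 148 CPM and endothelium at 90.6 CPM. The share of cells with a UMI did not follow that order, with 62.2% in smooth muscle, 56.8% in proximal tubule, 54.2% in podocytes, 51.5% in endothelium, 48.9% in pericytes and mesangial cells, 40.9% in renin-high cells and 35.4% in stroma. Whether the reporter bears on the contractile values was not tested.

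Acta1 differed in opposite directions at P0 over E15.5 in 2 classes. The log2 ratio was 5.89 in the early nephron, with 98 UMIs at P0 and 1 at E15.5, and -6.54 in smooth muscle, with 0 UMIs at P0 and 28 at E15.5. Both log2 values depend on the 0.5 UMI added to each side, and the smooth muscle UMIs at E15.5 came from 2 of 10 cells. The difference between the classes was not tested.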

How the results depend on the processing

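With 1 library per group no library could be left out, and the limits below are those of depth and of class size. No paired analysis was possible because each group is 1 library, and the number 1 that all of them carry only names them. Of 246 counts of members recomputed under an alternative, 178 stayed within 1.5 times and 68 moved; of 1525 values of single members, 1160 stayed within the 95% counting interval of the reported ratio, 347 moved outside it and 18 turned round. The counts are members past 2-fold in either direction. For P0 over E15.5 they were 2 in smooth muscle, 1 in pericytes, 3 in stroma and 6 in the early nephron; for P0 over E17.5 they were 1, 1, 1 and 7; for the transplant over P0 2, 4, 2 and 5; and for the transplant over E17.5 3, 4, 0 and 5, in that order of classes.

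At 1.5-fold, P0 over E15.5 gave 4 in smooth muscle, 3 in pericytes and 5 in stroma, P0 over E17.5 gave 3, 2 and 3, and the transplant over P0 gave 4, 7 and 6. The transplant over E17.5 gave 7 in smooth muscle and 7 in stroma. At 3-fold, P0 over E15.5 gave 1 in smooth muscle, 0 in pericytes and 1 in stroma, and P0 over E17.5 gave 0 in smooth muscle and 0 in stroma. There the transplant over P0 gave 0 in stroma, and the transplant over E17.5 gave 1 in smooth muscle, 2 in pericytes and 3 in the early nephron. With at least 100 UMIs, P0 over E15.5 gave 0 in smooth muscle, and P0 over E17.5 gave 0 in pericytes and 0 in stroma. The transplant over P0 then gave 1 in smooth muscle and 3 in the early nephron, the transplant over E17.5 gave 2 in pericytes, and smooth muscle over pericytes at E15.5 gave 5 in place of 8.

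Some alternatives changed the classes themselves. With at least 1000 genes per cell the pericyte and mesangial class held 317 cells at E17.5 in place of 90 and 636 at P0 in place of 268, and stroma 463 at P0 in place of 890. With each library clustered alone, pericytes numbered 123 at E15.5 in place of 26 and 523 at P0, and single-cell gates gave 117 at E15.5. The early nephron held 1419 cells at P0 in the main setting. Its P0 cells numbered 577 at resolution 0.8, 653 without doublet removal, 771 with single-cell gates and 1204 at most 10% mitochondrial UMIs. In the transplant, single-cell gates gave 274 early nephron cells in place of 23.

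At clustering resolution 0.8, P0 over E15.5 gave 2 in pericytes, P0 over E17.5 4 in the early nephron and the transplant over E17.5 2 in the early nephron. With at least 1000 genes per cell, P0 over E15.5 gave 2 in pericytes and the transplant over E17.5 gave 2 in stroma. At most 10% mitochondrial UMIs gave 0 in pericytes for P0 over E17.5 and 1 in stroma for the transplant over E17.5. Thinned to 3000 UMIs per cell, P0 over E15.5 gave 0 in pericytes and 3 in the early nephron, P0 over E17.5 gave 0 in smooth muscle, 0 in pericytes and 4 in the early nephron, and the transplant over P0 gave 4 in stroma. With each library clustered alone, P0 over E17.5 gave 2 in smooth muscle and 0 in stroma, the transplant over P0 1 in stroma and 8 in the early nephron, and the transplant over E17.5 5 in smooth muscle and 2 in stroma. Means over cells gave 1 in smooth muscle for P0 over E15.5, 0 in smooth muscle and 2 in stroma for P0 over E17.5, 8 in the early nephron for the transplant over P0, and 1 in stroma for the transplant over E17.5. Without doublet removal, P0 over E15.5 gave 2 in pericytes, P0 over E17.5 gave 2 in stroma and 4 in the early nephron, and the transplant over E17.5 gave 1 in stroma and 3 in the early nephron. Gating single cells in place of clusters gave 3 in pericytes for P0 over E15.5, 0 in stroma for P0 over E17.5, 1 in stroma for the transplant over P0, and 6 in smooth muscle and 3 in stroma for the transplant over E17.5. Scaling ratios to a median of 0 gave 1 in stroma for the transplant over P0.

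Some alternatives were chosen after seeing the data. In early nephron cells without a UMI of the smooth muscle, renin and pericyte markers used above, the transplant over E17.5 gave 3. In pericytes of the shared cluster, the transplant over P0 gave 2 and the transplant over E17.5 gave 1. With the Tbx18 and Myocd cells kept in stroma, P0 over E17.5 gave 5, the transplant over P0 5 and the transplant over E17.5 2.

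The values that turned round were on few UMIs or on the 23 early nephron cells of the transplant; as log2 ratios, Myh11 in pericytes was -0.19 for P0 over E17.5 with single-cell gates and -0.0203 and -0.97 for the transplant over E17.5 with libraries clustered alone and with single-cell gates. In the early nephron of the transplant over P0, Cnn1 was 0.18 without doublet removal and 0.22 with single-cell gates, Des 0.75 with single-cell gates, and Tpm2 0.0387 at resolution 0.8, 0.40 without doublet removal and 0.73 with single-cell gates. In the early nephron of the transplant over E17.5, Acta2 was -0.21 with libraries alone and -1.10 without doublet removal, and Tagln was -0.83 at resolution 0.8, -1.11 with libraries alone and -1.48 without doublet removal. There Myl9 was -0.22 with libraries alone, Des 0.11 with single-cell gates, and Tpm2 0.37 without doublet removal and 0.90 with single-cell gates. The cause was not tested. At least 1000 genes per cell left too few early nephron cells of the transplant, and thinning left too few smooth muscle cells at E15.5, so no value was given for these.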
